A study of Mus musculus with 18 samples.

Results

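The 33 Hox genes described here are all genes whose platform annotation names 1 gene symbol of the form Hoxa, Hoxb, Hoxc or Hoxd with a paralogue number, out of 18191 genes measured. They came from the Hoxa cluster (9 genes), the Hoxb cluster (9), the Hoxc cluster (7) and the Hoxd cluster (8). Where a gene had more than 1 probe set, which held for 11 of the 33, the one with the highest mean of the 18 arrays stood for it. The choice used no difference between groups.

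The material was RNA of mouse spinal cord cells enriched for motoneurons by p75 panning at E12.5, grown for 7 days in microfluidic chambers. BDNF (20 ng/ml) was given on the axonal side only, and CNTF (5 ng/ml) in both compartments. RNA of the axonal and of the somatodendritic side (cell bodies and dendrites) was hybridised to Affymetrix Mouse430_2 arrays. On each side there were 3 Smn knockdown arrays (lentivirus expressing a short hairpin RNA against Smn), 3 empty vector arrays (the lentivirus control) and 3 wild-type arrays (untreated). The pools of embryos behind the arrays are not described in the labels. Titles of the knockdown arrays are numbered in another scheme than those of the control arrays, and a separate handling of these arrays cannot be told apart from the knockdown.

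Hox genes encode homeodomain transcription factors that lie in 4 chromosomal clusters and are expressed along the head-to-tail axis in the order in which they lie there. Paralogue groups 1 to 3 are called the hindbrain class here, and groups 4 to 8 the cervical and brachial class. Group 9 is called the thoracic class, and groups 10 to 13 the lumbar class, which takes in more caudal levels. These are names of classes, and a gene of a class above background does not by itself place cells at that level. In motoneurons Hox proteins also set columnar and pool identity: Hoxc6 acts in the brachial lateral motor column, Hoxa5 and Hoxc5 in phrenic motoneurons, Hoxc9 at thoracic level, and Hoxc10 and Hoxd10 in the lumbar lateral motor column.

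Background on an array is the 95th percentile over 171 probe sets of genes that belong to other tissues, such as olfactory receptors, and above background in a group means above that level on all 3 of its arrays. This level was 6.26 to 6.53 on the somatodendritic arrays. On the axonal arrays it was 7.02 to 7.31 with the knockdown, 6.52 to 7.14 for the empty vector and 6.50 to 6.77 for wild-type. Across genes, arrays of the same somatodendritic group had correlations of at least 0.994, and arrays of the same axonal group of 0.744 to 0.902. Smn1, the target, lay below background on all but 1 array (7.01 on axonal empty vector replicate 1), so its probe set does not show the knockdown. The defining motoneuron markers Chat, Slc18a3 and Mnx1 were below background on the somatodendritic arrays (5.55 to 5.86, 3.69 to 3.99 and 4.27 to 4.64) and Isl1 was near it (5.65 to 6.72). The neuronal genes Nefl, Nefm and Nefh of the same list were above background.

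The first question is which Hox genes and paralogue groups were above background in these cultures. On the somatodendritic arrays Hox genes of all 4 paralogue classes were above background, 21 of 33 with the knockdown, 20 with the empty vector and 20 in wild-type. The corresponding share of all 18191 genes was 54.9%, 52.8% and 53.4%. Of the 7 genes of paralogue groups 1 to 3, 4 were above background with the knockdown, 3 with the empty vector and 3 in wild-type. Of the 12 genes of groups 4 to 8, 9 were above background in each of these 3 groups. All 4 genes of group 9 were above background in each, and 4 of the 10 genes of groups 10 to 13. The brain genes Otx1, Otx2, Emx1, Emx2, Six3, Six6, Tbr1, En2, Rax and Hesx1, which mark levels in front of the Hox domain, were below background on the somatodendritic arrays except Emx1 (6.39 to 6.83), and Otx2, which marks forebrain and midbrain, was at 2.93 to 3.42.

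**Figure D1:**
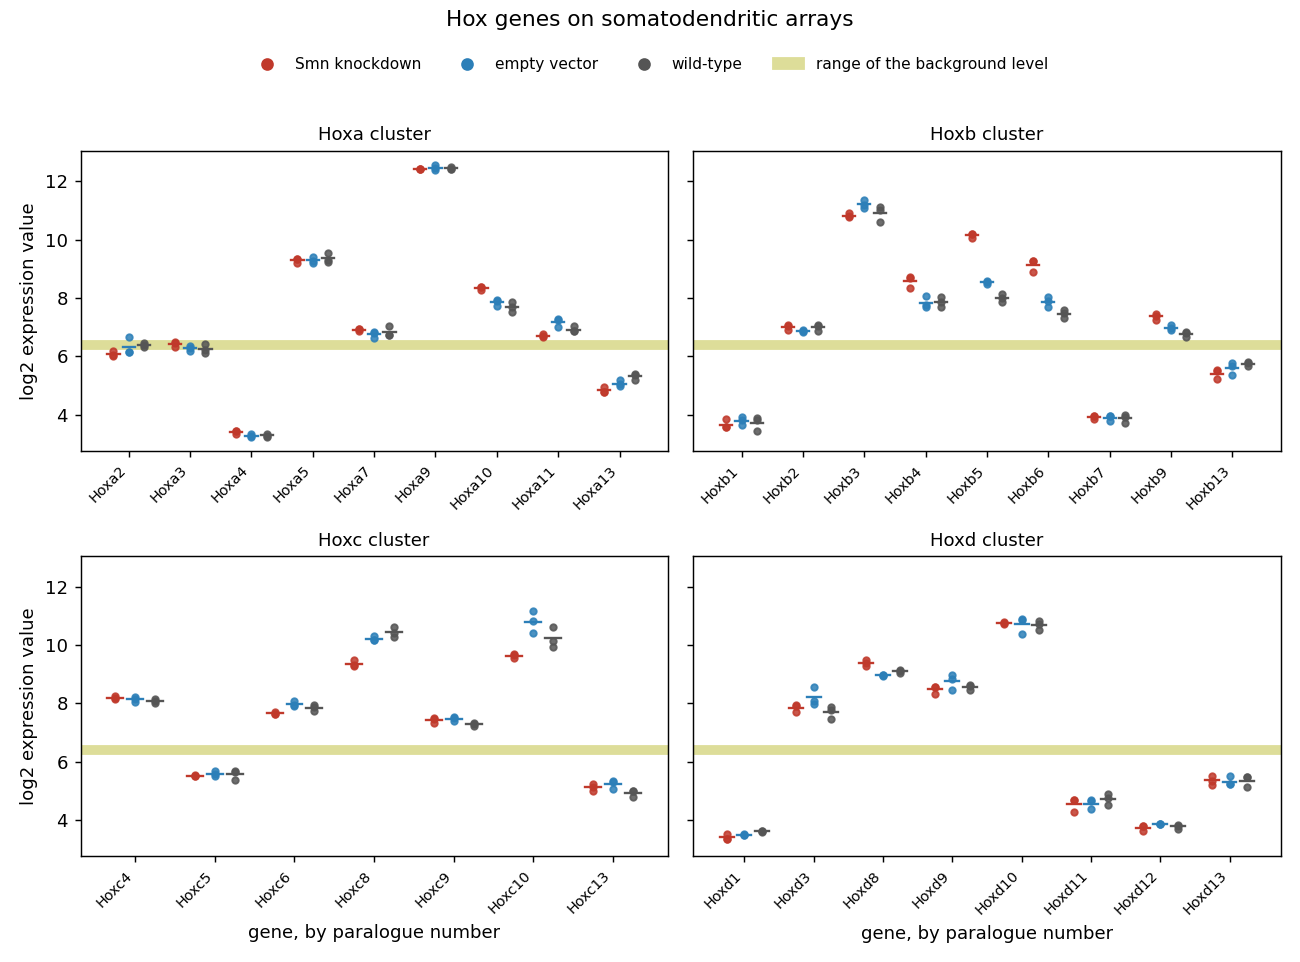
Log2 expression values of the 33 Hox genes on the 9 somatodendritic arrays, 1 panel per cluster, with genes in order of paralogue number along the horizontal axis. Points are arrays (red Smn knockdown, blue empty vector, grey wild-type, 3 each), short lines are group means and the band is the range of the background level (6.26 to 6.53); Hoxb5 and Hoxb6 stand out with red points above the blue and grey ones, and Hoxc8 and Hoxc10 with red points below.

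Of the hindbrain class, Hoxb2, a regulator of hindbrain segment identity, was at 7.04, 6.92 and 7.07 with the knockdown, 6.86, 6.85 and 6.92 with the empty vector and 7.06, 7.09 and 6.87 in wild-type arrays. Hoxa3, a paralogue of Hoxb3, lay close to the background level and exceeded it on all arrays of the knockdown group alone, with 6.47, 6.31 and 6.49 under the knockdown, 6.18, 6.30 and 6.35 with the empty vector and 6.41, 6.12 and 6.22 in wild-type. Hoxd3, of the same paralogue group, was at 7.71, 7.90 and 7.96 with the knockdown, 8.08, 8.57 and 7.99 with the empty vector and 7.45, 7.78 and 7.87 in wild-type. For Hoxb2 and Hoxa3 the knockdown arrays overlapped those of at least 1 control, and for Hoxd3 they lay below the empty vector arrays and among the wild-type arrays. Hoxa2, which specifies the second rhombomere, and Hoxb1, which specifies the fourth, were not above background in any group (5.30 to 6.70 and 3.44 to 4.59), with 1 axonal empty vector array at 9.39 for Hoxb1. Hoxd1 was not above background either (3.35 to 5.36).

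Of the cervical and brachial class, Hoxc4 was at 8.25, 8.14 and 8.19 with the knockdown, 8.06, 8.14 and 8.21 with the empty vector and 8.0, 8.08 and 8.14 in wild-type. Hoxa5, which maintains phrenic motoneurons, was at 9.35, 9.20 and 9.34 with the knockdown, 9.20, 9.41 and 9.28 with the empty vector and 9.54, 9.31 and 9.24 in wild-type. Hoxa7 was at 6.95, 6.94 and 6.86 with the knockdown, 6.63, 6.79 and 6.84 with the empty vector and 6.72, 6.73 and 7.04 in wild-type. The knockdown arrays overlapped at least 1 control group for all 3 of these genes. A second Hoxa5 probe set, also above background, was called higher with the knockdown, by 0.27 against the empty vector (adjusted p = 0.0364) and 0.43 against wild-type (adjusted p = 0.00211). Hoxa4, Hoxb7 and Hoxc5 were not above background in any group, Hoxa4 at 3.24 to 3.46, Hoxb7 at 3.72 to 4.00 and Hoxc5 at 5.39 to 5.67 on the somatodendritic arrays.

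Of the thoracic class, Hoxa9 was at 12.41, 12.41 and 12.42 with the knockdown, 12.38, 12.57 and 12.45 with the empty vector and 12.43, 12.49 and 12.41 in wild-type, a spread between arrays of at most 0.10 (SD, n = 3) in any of the 3 groups. Hoxc9, which represses limb-level motor column fate at thoracic level, was at 7.46, 7.51 and 7.34 with the knockdown, 7.54, 7.50 and 7.41 with the empty vector and 7.23, 7.30 and 7.34 in wild-type. Hoxd9 was at 8.55, 8.56 and 8.33 with the knockdown, 8.85, 8.46 and 8.97 with the empty vector and 8.45, 8.63 and 8.61 in wild-type. None of these 3 was separated from both controls.

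Of the lumbar class, Hoxd10, which with Hoxc10 and Hoxa10 sets lumbar motoneuron identity, was at 10.73, 10.78 and 10.75 with the knockdown, 10.85, 10.37 and 10.90 with the empty vector and 10.51, 10.72 and 10.83 in wild-type. Its 3 groups overlapped. Hoxa13, Hoxb13, Hoxc13 and Hoxd13, the genes of the last paralogue group, were below background on every somatodendritic array (4.78 to 5.41, 5.22 to 5.82, 4.81 to 5.34 and 5.13 to 5.53), as were Hoxd11 and Hoxd12 (4.27 to 4.89 and 3.62 to 3.88). The range covered by genes above background therefore ran from Hoxb2 to Hoxa11, with no gene of groups 12 and 13. These counts depend on the background genes, which were narrowed after seeing the data: with the wider set first written, 5 of the 33 were above background in each somatodendritic group.

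The comparison of Smn knockdown with empty vector in the somatodendritic compartment asks which transcripts change with the knockdown. Of the 33 Hox genes 6 rose and 5 fell, and the largest changes were those of 3 neighbours in the Hoxb cluster and of 2 Hoxc genes. Hoxb5 rose 3.05-fold, Hoxb6 2.39-fold and Hoxb4 1.66-fold, while Hoxc10 was 2.25-fold and Hoxc8 1.81-fold lower with the knockdown. Hoxa10, Hoxd8 and Hoxb9 also rose, and Hoxa11, Hoxb3 and Hoxc6 also fell. Each direction is that of the probe set used. For Hoxd8 a second probe set, also above background, pointed the other way. The 11 genes are 33.3% of the 33, and 28.0% of all genes tested were called in this comparison (limma, adjusted p under 0.05 over 18191 genes), so the share of Hox genes called was close to that of all genes. Of all genes 2267 were called higher and 2821 lower. Knockdown arrays lay wholly above the empty vector arrays for 9 Hox genes and wholly below them for 8. Over all 18191 genes, 7871 did not overlap in 1 direction or the other. The median log2 difference was -0.05 over the 33 Hox genes and -0.02 over all genes.

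RefSeq promoter windows, the 250 bases before a gene's start (build GRCm38.p6), were found for 19 of the 33 genes, 21 windows in all. Of the 11 called genes they covered Hoxb4, Hoxd8 and Hoxa10, called higher, and Hoxa11, called lower. A second Hoxd8 probe set pointed the other way, so the direction of Hoxd8 is not settled. Hoxb5, Hoxb6, Hoxc8 and Hoxc10, which were among the largest changes, had no window. 4 short motifs were searched on both strands: TGATTNAT, bound by Hox proteins together with Pbx; AGGTCA, the core hexamer of retinoic acid receptors and other nuclear receptors; the interferon regulatory factor motif (GAAA, any 2 bases, GAAA); and TATAAA. The windows of Hoxb4, Hoxd8, Hoxa10 and Hoxa11 are shown 5′ to 3′ on the gene's strand. A match of any of the 4 motifs, on either strand, is in capitals. A link between motif and direction of change was not tested. Hoxb4 (chr11:96318017-96318266, plus strand) and Hoxd8 (chr2:74704365-74704614, plus strand) each hold 1 AGGTCA, Hoxa10 has 2 annotated starts (chr6:52234940-52235189 and chr6:52240855-52241104, minus strand) with 1 TATAAA before the first of them, and Hoxa11 (chr6:52245811-52246060, minus strand) holds none of the 4. No printed window has more than 1 match, so no matches overlap.
Hoxb4: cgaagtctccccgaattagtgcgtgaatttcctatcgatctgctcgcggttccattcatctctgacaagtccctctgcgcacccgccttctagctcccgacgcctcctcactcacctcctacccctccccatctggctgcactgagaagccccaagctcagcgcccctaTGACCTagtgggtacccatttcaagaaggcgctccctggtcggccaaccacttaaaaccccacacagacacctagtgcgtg
Hoxd8: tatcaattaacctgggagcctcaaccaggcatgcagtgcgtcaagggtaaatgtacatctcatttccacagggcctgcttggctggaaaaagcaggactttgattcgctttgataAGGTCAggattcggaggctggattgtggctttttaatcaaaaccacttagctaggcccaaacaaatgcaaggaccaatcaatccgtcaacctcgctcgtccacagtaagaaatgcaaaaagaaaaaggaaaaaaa
Hoxa10 (first window): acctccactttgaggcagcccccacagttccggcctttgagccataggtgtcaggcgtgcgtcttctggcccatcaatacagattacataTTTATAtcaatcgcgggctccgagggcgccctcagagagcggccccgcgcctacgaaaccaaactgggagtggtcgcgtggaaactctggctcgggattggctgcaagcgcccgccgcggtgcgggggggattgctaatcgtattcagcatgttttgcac
Hoxa10 (second window): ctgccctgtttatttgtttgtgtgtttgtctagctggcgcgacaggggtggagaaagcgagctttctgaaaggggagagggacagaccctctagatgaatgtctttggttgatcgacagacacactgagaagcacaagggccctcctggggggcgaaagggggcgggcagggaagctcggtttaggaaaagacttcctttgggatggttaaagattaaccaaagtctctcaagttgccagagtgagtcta
Hoxa11: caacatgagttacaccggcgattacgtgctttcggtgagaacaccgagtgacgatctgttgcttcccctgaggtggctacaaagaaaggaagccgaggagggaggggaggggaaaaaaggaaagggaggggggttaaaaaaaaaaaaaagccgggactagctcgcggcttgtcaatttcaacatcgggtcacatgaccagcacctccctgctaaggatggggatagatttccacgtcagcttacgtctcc

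Over all 21 Hox windows, AGGTCA was in 5 (14% of 32851 windows of all genes held it), TGATTNAT in 2 (2.8% of all windows), TATAAA in 2 (12.4%) and the interferon regulatory factor motif in 0 (3.0%). The Hox windows had a median of 13 CpG dinucleotides (range 2 to 35) and a median GC content of 59.2%, against 6 CpG (range 0 to 56) and 52.4% over all windows. AGGTCA also lay in windows of Hoxc4, Hoxd3 and Hoxd10, and TATAAA in that of Hoxd13, none of them called against the empty vector. TGATTNAT lay only in windows of Hoxa2 and Hoxd11, which were not called either. These are matches of letters, not binding sites.

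The Hoxb genes are taken first. Hoxb5, which acts in neural crest and brachial spinal cord, was at 10.18, 10.20 and 10.06 with the knockdown, against 8.49, 8.58 and 8.56 with the empty vector and 8.0, 7.85 and 8.14 in wild-type. All 3 knockdown arrays lay above all control arrays, and the log2 difference was 1.61 against the empty vector (SE 0.09, n = 3 per group, limma adjusted p = 1.26e-07) and 2.15 against wild-type (SE 0.09, adjusted p = 1.82e-08). Hoxb6, its neighbour in the cluster, was at 9.26, 9.26 and 8.88 with the knockdown, against 7.70, 8.02 and 7.90 with the empty vector and 7.50, 7.32 and 7.59 in wild-type. It too was separated from both controls, by 1.26 (SE 0.13, adjusted p = 1.59e-05) and 1.66 (SE 0.13, adjusted p = 1.63e-06). Hoxb4, which lies on the other side of Hoxb5, was at 8.33, 8.68 and 8.73 with the knockdown, against 7.75, 8.08 and 7.71 with the empty vector and 8.02, 7.69 and 7.87 in wild-type, a log2 difference of 0.74 (SE 0.14, adjusted p = 0.00146) and 0.72 (adjusted p = 0.00119).

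The differences of the other called Hoxb genes were smaller. Hoxb9 was at 7.25, 7.39 and 7.47 with the knockdown, against 6.96, 7.07 and 6.91 with the empty vector and 6.81, 6.66 and 6.85 in wild-type, and rose by 0.39 (SE 0.09, adjusted p = 0.00717) and 0.59 (adjusted p = 3.22e-04). Hoxb3, of the hindbrain class, was at 10.80, 10.77 and 10.90 with the knockdown, against 11.08, 11.35 and 11.19 with the empty vector and 10.60, 11.11 and 11.02 in wild-type. Its knockdown arrays lay below all empty vector arrays and within the range of the wild-type arrays. It fell by 0.38 against the empty vector (SE 0.13, adjusted p = 0.0404), a call lost without empty vector replicate 2 or 3 or without any 1 of the knockdown arrays (adjusted p 0.062 to 0.132), and the difference from wild-type was not called. A second Hoxb3 probe set gave 0.22 (adjusted p = 0.355) against the empty vector. In the RefSeq table the span of Hoxb3 holds Hoxb4, and the files do not say which transcripts each probe set reads. Hoxb2 (0.13), Hoxb1 (-0.14), Hoxb7 (0.02) and Hoxb13 (-0.19) were not called.

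The Hoxc genes that were called fell. Hoxc8, which patterns brachial motor pools, was at 9.33, 9.28 and 9.48 with the knockdown, against 10.31, 10.17 and 10.18 with the empty vector and 10.62, 10.42 and 10.29 in wild-type. Every knockdown array lay below every control array, by -0.86 against the empty vector (SE 0.10, adjusted p = 5.80e-05) and -1.08 against wild-type (SE 0.10, adjusted p = 7.75e-06). Hoxc10, of the lumbar class, was at 9.68, 9.66 and 9.57 with the knockdown, against 10.82, 10.42 and 11.17 with the empty vector and 9.92, 10.15 and 10.60 in wild-type. The knockdown arrays lay below all control arrays, while both control groups overlapped, and the log2 difference was -1.17 (SE 0.19, adjusted p = 5.44e-04) against the empty vector. Against wild-type it was -0.59 (adjusted p = 0.0262), a call lost without wild-type replicate 3 (-0.40, adjusted p = 0.102) or without any 1 of the knockdown arrays (adjusted p 0.0568 to 0.0766).

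Hoxc6, the brachial lateral motor column gene, was at 7.72, 7.63 and 7.64 with the knockdown, against 8.08, 7.94 and 7.90 with the empty vector and 7.95, 7.74 and 7.87 in wild-type. It fell by 0.31 against the empty vector (SE 0.09, adjusted p = 0.0196) and was not called against wild-type. The call was lost without empty vector replicate 1 (adjusted p = 0.0807) or without knockdown replicate 2 or 3 (adjusted p = 0.0713 and 0.0589), and a second, dim Hoxc6 probe set gave 0.26 in the other direction (adjusted p = 0.046). Hoxc4 (0.05), Hoxc9 (-0.05), Hoxc5 (-0.06) and Hoxc13 (-0.11) were not called. Hoxc9 lies between Hoxc8 and Hoxc10 in the cluster, and its difference had an SE of 0.08 (adjusted p = 0.732).

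In the Hoxa cluster the neighbours Hoxa10 and Hoxa11, whose promoter windows are printed, were called in opposite directions. Hoxa10 was at 8.37, 8.39 and 8.27 with the knockdown, against 7.94, 7.72 and 7.91 with the empty vector and 7.53, 7.86 and 7.71 in wild-type, and rose by 0.49 (SE 0.10, adjusted p = 0.00322) and 0.65 (adjusted p = 3.38e-04). Hoxa11 was at 6.71, 6.76 and 6.68 with the knockdown, against 7.25, 7.00 and 7.29 with the empty vector and 6.86, 7.04 and 6.86 in wild-type. It fell by 0.46 against the empty vector (SE 0.10, adjusted p = 0.00358), and was not called against wild-type. Its knockdown values lay just above the background level. Hoxa13, at 4.97, 4.78 and 4.78 with the knockdown, 4.99, 5.18 and 5.05 with the empty vector and 5.21, 5.41 and 5.35 in wild-type, was called lower against wild-type (-0.48, adjusted p = 0.00162) although it was below background on these arrays.

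In the Hoxd cluster 1 gene was called. Hoxd8 was at 9.29, 9.37 and 9.48 with the knockdown, against 8.93, 8.97 and 8.99 with the empty vector and 9.05, 9.14 and 9.11 in wild-type, a log2 difference of 0.42 (SE 0.08, adjusted p = 0.00202) and 0.28 (adjusted p = 0.0166). Its second probe set pointed the other way, at 8.23, 8.38 and 8.42 with the knockdown, against 8.58, 8.55 and 8.64 with the empty vector and 8.72, 8.84 and 8.55 in wild-type. That probe set differed by -0.25 against the empty vector (adjusted p = 0.0795) and by -0.36 against wild-type (adjusted p = 0.0111), so the files give no single direction for Hoxd8. Hoxd3 (-0.36, adjusted p = 0.108), Hoxd9 (-0.28, adjusted p = 0.122) and Hoxd10 (0.05, adjusted p = 0.851) were not called.

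**Figure D2:**
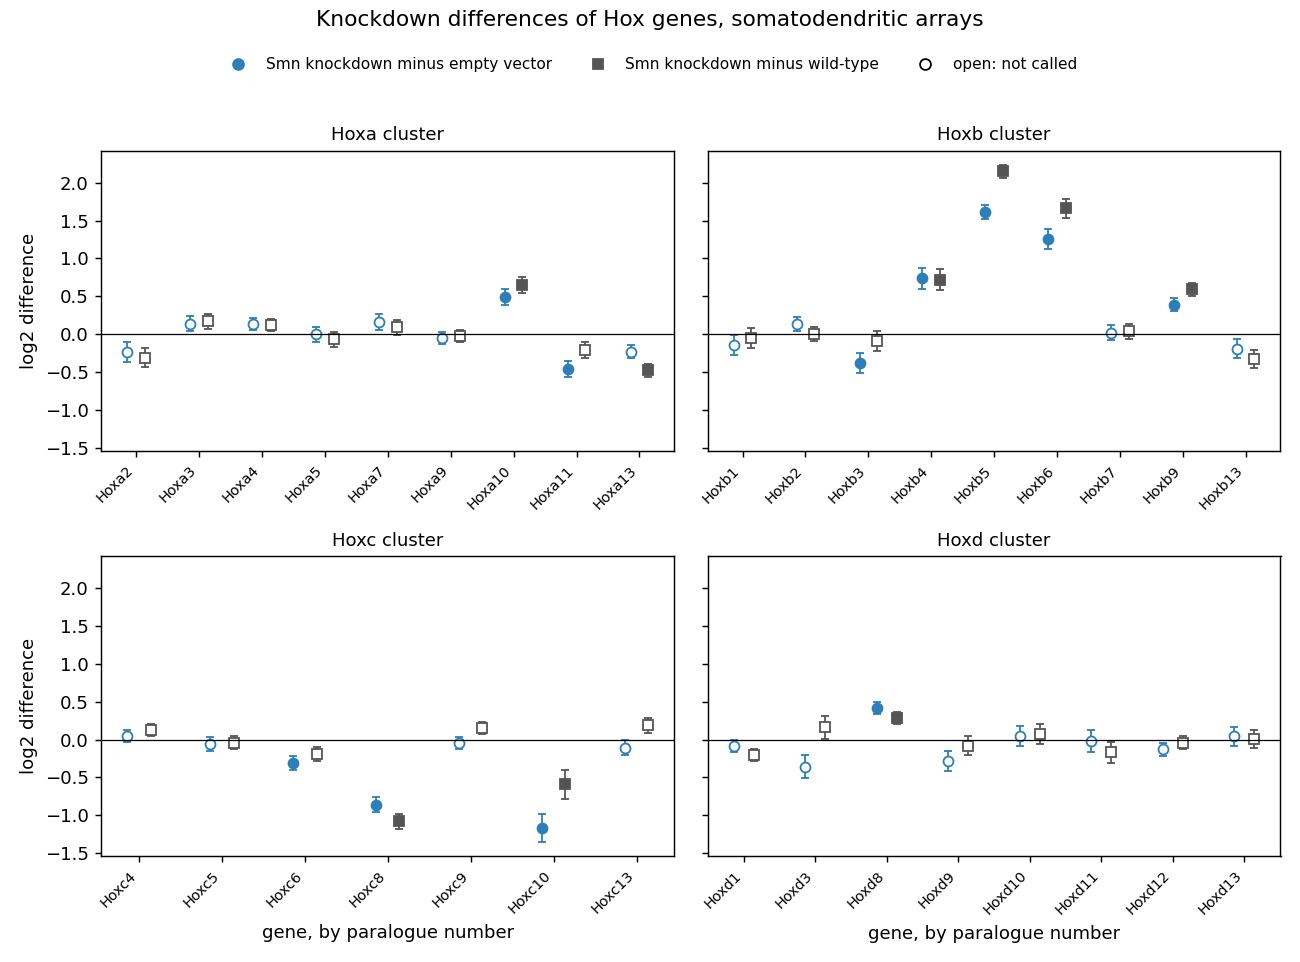
Log2 differences of Smn knockdown from empty vector (blue circles) and from wild-type (grey squares) on the somatodendritic arrays for the 33 Hox genes, by cluster and paralogue number, with limma standard errors as bars. Filled symbols are called at adjusted p under 0.05; Hoxb4, Hoxb5 and Hoxb6 lie above 0.5 in both comparisons, and Hoxc8 and Hoxc10 lie below -0.5 in both.

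By paralogue class, 0 of 7 genes of groups 1 to 3 rose and 1 fell against the empty vector, 4 of 12 of groups 4 to 8 rose and 2 fell, 1 of 4 of group 9 rose and 0 fell, and 1 of 10 of groups 10 to 13 rose and 2 fell. By cluster, 4 of 9 Hoxb genes rose and 1 fell, and of 7 Hoxc genes 0 rose and 3 fell. Across the 33 genes the log2 difference and the paralogue number had a Pearson correlation of -0.17 and a Spearman correlation of -0.13, a description of points that share the same 6 arrays. Against wild-type, 9 of the 33 genes were called (27.3%, against 36.0% of all genes). 6 of them rose by the probe sets used, the same genes as against the empty vector, and 3 fell, of which Hoxc8 and Hoxc10 fell against both. After quantile normalization over all 18 arrays 6 rose and 5 fell against wild-type. As deposited, knockdown arrays lay wholly above the wild-type arrays for 9 Hox genes and wholly below them for 8. Over all 18191 genes, 8854 did not overlap in 1 direction or the other. Both comparisons use the same knockdown arrays.

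Between somatodendritic empty vector and wild-type arrays, 10 of 14 microglia and macrophage markers were lower with the empty vector (median log2 difference -1.71). Their part in the Hox values was not tested. Of the 33 Hox genes 1 was called, against 2.00% of all genes: Hoxb5 was higher with the empty vector, by 0.54 (SE 0.09, adjusted p = 0.00821). Hoxb5 was thus highest with the knockdown, lower with the empty vector and lowest in wild-type, with no overlap between any of the 3 groups. Hoxb6, at 0.40 (adjusted p = 0.131), was not called. Empty vector arrays lay wholly above the wild-type arrays for 7 of the 33 Hox genes and wholly below them for 3. Over all 18191 genes, 3435 did not overlap in 1 direction or the other. Without wild-type replicate 3 the count of called Hox genes was 2.

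Several other measures moved with the somatodendritic knockdown arrays. Over all 18191 genes, 2267 were called higher and 2821 lower against the empty vector. Of 14 microglia and macrophage markers 13 rose against the empty vector, and their mean log2 level was 8.20 to 8.56 with the knockdown, 6.02 to 6.34 for the empty vector and 7.84 to 7.93 for wild-type. Above background were 11 of them with the knockdown, 4 with the empty vector and 10 in wild-type. Of 12 astrocyte and radial glia markers 8 fell (mean level 9.03 to 9.39 with the knockdown, 9.59 to 9.78 for the empty vector and 9.58 to 9.69 for wild-type), and of 9 oligodendrocyte lineage markers 6 fell (7.04 to 7.64 with the knockdown, 7.98 to 8.49 for the empty vector and 8.34 to 8.64 for wild-type). Of 11 cell cycle genes 9 fell (7.42 to 7.77 with the knockdown, 8.55 to 8.86 for the empty vector and 8.68 to 9.05 for wild-type). For Gapdh the 3' probe set exceeded the 5' probe set by 3.99 to 4.12 with the knockdown, 3.53 to 3.68 for the empty vector and 3.11 to 3.61 for wild-type. On the axonal arrays this difference was 1.44 to 3.91. It is used as a measure of RNA integrity, but this RNA went through 2 rounds of linear amplification. What sets the difference here was not tested. The part of these shifts in the Hox differences was not tested, and in such bulk RNA fewer cells of a type and less RNA per cell cannot be told apart.

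The proteins that work with Hox factors were looked up next, from lists chosen for that purpose. TALE homeodomain proteins bind DNA together with Hox proteins. Of 8 measured, 1 rose and 3 fell with the knockdown against the empty vector: Pbx3 fell by 1.09 (SE 0.10, adjusted p = 7.67e-06), Meis1 by 0.33 and Pknox2 by 0.26, and Pknox1 rose by 0.50. Of 21 Polycomb genes, whose products keep Hox clusters silent, 3 rose (Cbx6 by 1.17, Mtf2 by 0.74 and Jarid2 by 0.63) and 3 fell (Ezh2, the histone H3K27 methyltransferase, by 0.70, Eed by 0.68 and Bmi1 by 0.48). Of 10 genes of MLL complexes and H3K27 demethylases, which act against Polycomb, Kmt2a (0.39) and Rbbp5 (0.30) rose and Kdm6b fell by 0.33. The median log2 difference was -0.23 over the TALE genes, -0.06 over the Polycomb genes and 0.13 over the MLL and demethylase genes, beside -0.02 over all genes. The called genes were 4 of 8, 6 of 21 and 3 of 10 in these lists, to be read against 28.0% of all genes.

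Upstream and downstream lists showed the following. Of 19 genes of retinoid, Cdx and Gdf11 signalling, the inputs that open Hox clusters in the embryo, 0 rose and 2 fell, the retinaldehyde dehydrogenase Aldh1a1 (-1.36) and the retinoic acid receptor Rarb (-0.69), both below background in both groups. Of 16 motor column and pool genes, which Hox proteins control in motoneurons, 1 rose and 6 fell. Foxp1, the Hox cofactor of lateral motor column neurons, fell by 0.81 (SE 0.12, adjusted p = 2.47e-04), the GDNF receptor subunit genes Ret and Gfra1 by 0.75 and 0.52, and Epha4, a guidance receptor of dorsal limb axons, by 0.49. Nos1, Pou3f1 and, below background, Isl2 (which rose) were the others. The called genes were 2 of 19 and 7 of 16 in these lists, beside 28.0% of all genes. None of the 10 brain genes named above was called.

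In the axonal compartment fewer Hox genes were above background: 6 of 33 with the knockdown, 13 with the empty vector and 15 in wild-type, beside 21.9%, 29.8% and 38.1% of all genes. Hoxb4, Hoxc4, Hoxc6 and Hoxc9 were above background in all 3 axonal groups and in all 3 somatodendritic groups. With the knockdown the other 2 were Hoxa11 and Hoxb13. None of the 33 Hox genes passed limma's test (0 called) between axonal groups. For knockdown against empty vector 0.176% of all genes were called, for knockdown against wild-type 0.0990%, and for empty vector against wild-type 0%. At an unadjusted p under 0.05 these comparisons held 8, 10 and 1 of the 33 Hox genes, or 18.2%, 20.9% and 3.31% of all genes. Data were also simulated with 100 of 18191 genes shifted by log2 1 and another 100 by log2 2. There limma recovered 3% of the genes shifted by 2 between axonal knockdown and empty vector. Recovery depends on the share of genes shifted, so the 3% may not hold for the real arrays. An absence of calls in axons does not show an absence of change.

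**Figure D3:**
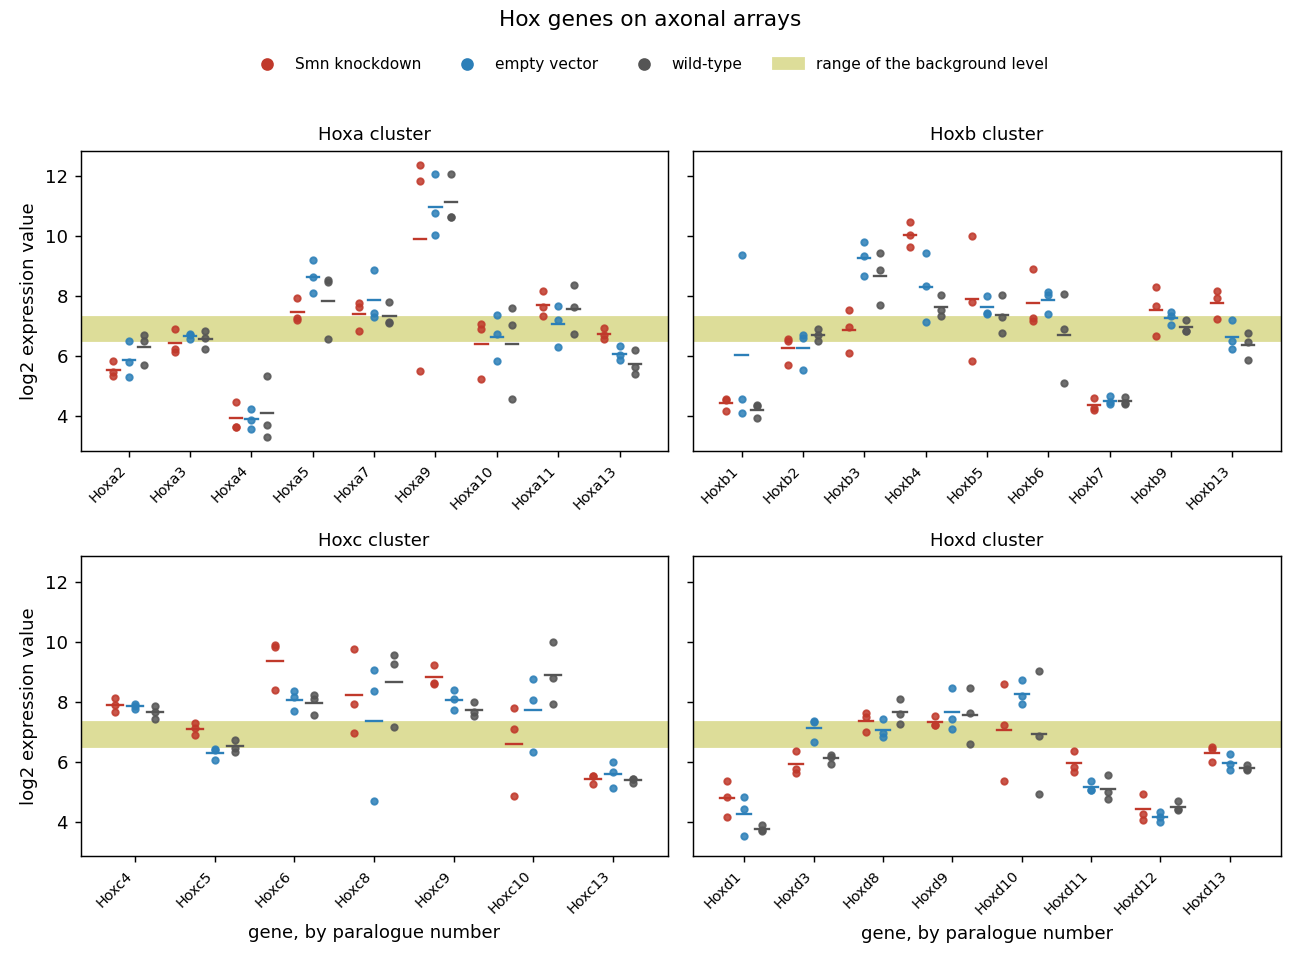
Log2 expression values of the 33 Hox genes on the 9 axonal arrays, drawn like the somatodendritic values: 1 panel per cluster, points for arrays, short lines for group means, and a band for the range of the background level (6.50 to 7.31). Most genes lie in or below the band, and the arrays of a group lie far apart for Hoxa9, Hoxb5, Hoxc8 and Hoxd10.

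Hoxb4 was the Hox gene with the clearest axonal separation upward. It was at 10.49, 9.65 and 10.04 with the knockdown, against 8.33, 9.43 and 7.15 with the empty vector and 8.06, 7.36 and 7.55 in wild-type, so the 3 knockdown arrays lay above all control arrays. The log2 difference was 1.76 against the empty vector (SE 0.55, adjusted p = 0.154) and 2.40 against wild-type (SE 0.55, adjusted p = 0.0716), and neither was called. Hoxc6 was at 9.81, 9.89 and 8.38 with the knockdown, against 7.70, 8.34 and 8.16 with the empty vector and 8.21, 7.57 and 8.09 in wild-type, with a difference of 1.29 (SE 0.44, adjusted p = 0.182) and 1.40 (adjusted p = 0.128). The other Hoxc6 probe sets, both dim, gave -0.13 (adjusted p = 0.894) and -0.53 (adjusted p = 0.37) against the empty vector. Hoxc9 was at 9.22, 8.61 and 8.59 with the knockdown, against 8.09, 7.71 and 8.38 with the empty vector and 7.99, 7.67 and 7.51 in wild-type, with a difference of 0.75 (adjusted p = 0.248) and 1.08 (adjusted p = 0.104). For all 3 genes the knockdown arrays did not overlap the control arrays. Of the 33 Hox genes 7 lay wholly above the empty vector arrays in this way and 9 wholly above the wild-type arrays. Both counts include Hoxa13, Hoxc5 and Hoxd11, which were not above background in any group. Over all genes 13.3% lay wholly above the empty vector arrays and 18.8% wholly above the wild-type arrays.

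Hoxb3 was the Hox gene with the lowest p downward. It was at 6.12, 7.56 and 6.99 with the knockdown, against 9.34, 9.82 and 8.69 with the empty vector and 7.71, 8.89 and 9.43 in wild-type. Only 1 knockdown array exceeded its background level, and all 3 lay below all control arrays. The fitted difference was -2.40 (SE 0.55, adjusted p = 0.0877), at least 4.06-fold lower than with the empty vector, and -1.79 against wild-type (adjusted p = 0.121, at least 2.66-fold lower). Neither was called. A second Hoxb3 probe set, in axons above background in wild-type only, gave -0.11 (adjusted p = 0.914) and 0.07 (adjusted p = 0.939). In 1 direction or the other, axonal knockdown arrays did not overlap the empty vector arrays for 3958 of all 18191 genes, and the wild-type arrays for 5230. Hoxc10 was at 7.78, 7.09 and 4.87 with the knockdown, against 8.06, 6.33 and 8.75 with the empty vector and 7.94, 8.79 and 9.98 in wild-type. It overlapped the empty vector arrays and lay below all wild-type arrays (-2.33, adjusted p = 0.195). Hoxd3, at 5.63, 5.77 and 6.35 with the knockdown, 7.34, 6.65 and 7.37 with the empty vector and 5.93, 6.17 and 6.23 in wild-type, was above background on 2 empty vector arrays only. Its knockdown arrays lay below all empty vector arrays (-1.21, SE 0.31, adjusted p = 0.114, and 0.00388 with all 18 arrays in 1 fit) and overlapped the wild-type arrays.

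The genes with the largest somatodendritic changes varied widely between axonal arrays. Hoxb5 was at 5.85, 10.02 and 7.82 with the knockdown, against 7.42, 8.02 and 7.46 with the empty vector and 6.79, 7.30 and 8.03 in wild-type. Hoxb6 was at 7.18, 7.27 and 8.92 with the knockdown, against 8.05, 8.15 and 7.42 with the empty vector and 5.12, 6.92 and 8.08 in wild-type. Hoxc8 was at 6.96, 7.94 and 9.76 with the knockdown, against 8.37, 4.68 and 9.06 with the empty vector and 7.17, 9.27 and 9.55 in wild-type. For all 3 the axonal groups overlapped, and the axonal arrays show no direction for them.

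**Figure D4:**
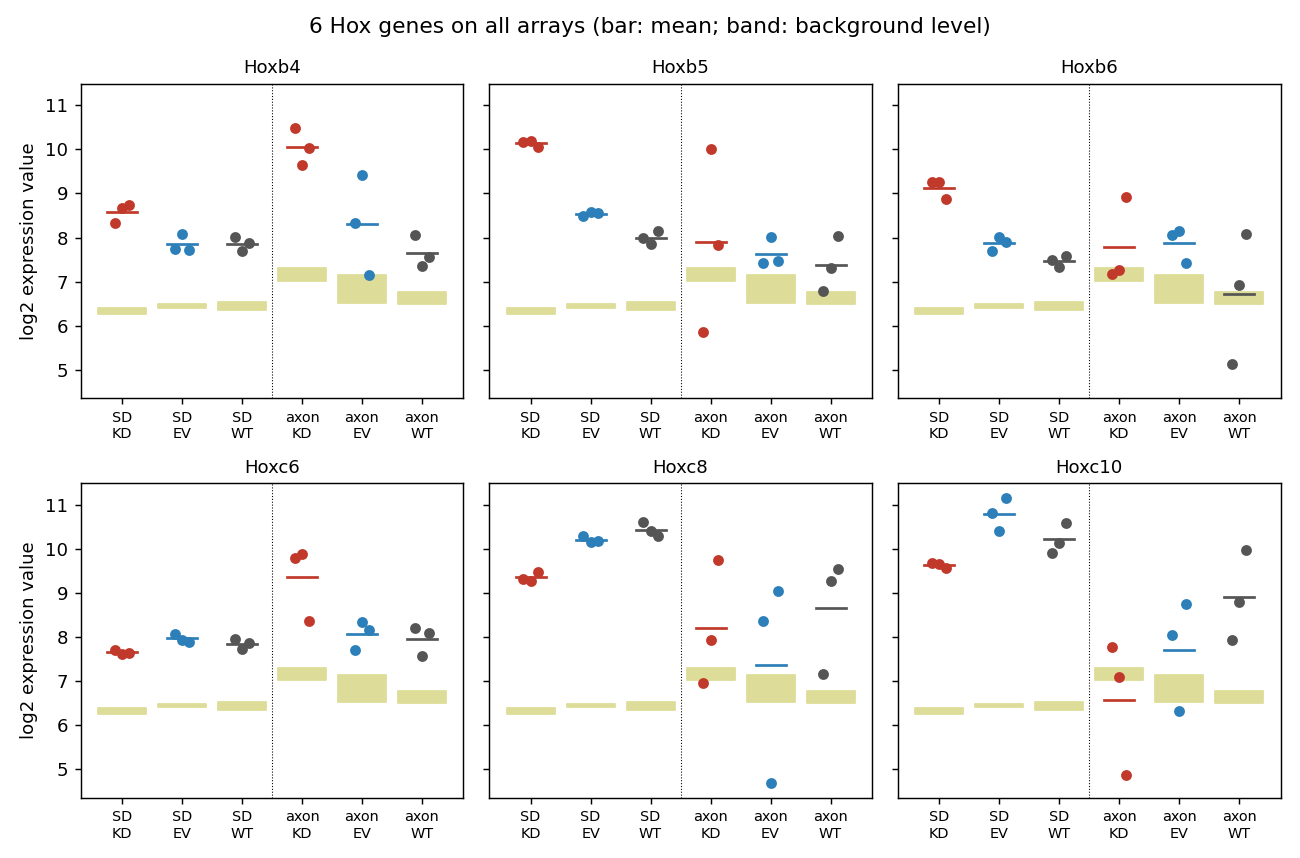
Log2 expression values of Hoxb4, Hoxb5, Hoxb6, Hoxc6, Hoxc8 and Hoxc10 on all 18 arrays, grouped as somatodendritic (SD) and axonal Smn knockdown (KD), empty vector (EV) and wild-type (WT), 3 arrays each. Lines are means and bands the range of the background level in each group. The somatodendritic knockdown arrays lie apart from both control groups for all 6 genes, and the axonal knockdown arrays lie wholly above the axonal controls for Hoxb4 and Hoxc6 only. Over all 18191 genes, the somatodendritic knockdown arrays did not overlap the empty vector arrays for 7871 and the wild-type arrays for 8854.

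The other genes above background on at least 1 group of arrays gave the following axonal values. Hoxa5 was at 7.20, 7.28 and 7.95 with the knockdown, 8.63, 9.20 and 8.12 with the empty vector and 6.58, 8.47 and 8.53 in wild-type. Hoxa7 was at 6.83, 7.63 and 7.77 with the knockdown, 7.45, 8.87 and 7.30 with the empty vector and 7.80, 7.11 and 7.15 in wild-type. Hoxa9 was at 5.52, 11.86 and 12.39 with the knockdown, 10.79, 10.05 and 12.07 with the empty vector and 10.66, 10.65 and 12.08 in wild-type. For Hoxa9, knockdown replicate 1 thus lay below background while the other 2 were in the range of the highest control arrays; this array also had the lowest correlation with the somatodendritic controls of all 18 (0.539). Hoxa10 was at 7.07, 6.91 and 5.26 with the knockdown, 7.39, 5.83 and 6.74 with the empty vector and 4.58, 7.62 and 7.03 in wild-type. Hoxa11 was at 8.19, 7.33 and 7.66 with the knockdown, 7.67, 7.22 and 6.30 with the empty vector and 6.76, 7.63 and 8.38 in wild-type. Hoxa3 was at 6.15, 6.90 and 6.24 with the knockdown, 6.71, 6.73 and 6.59 with the empty vector and 6.25, 6.62 and 6.86 in wild-type. Of these 6, all overlapped between groups except Hoxa5, whose knockdown arrays lay below the empty vector arrays but not below wild-type.

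Among the remaining Hoxb and Hoxc genes, Hoxb2 was at 5.71, 6.58 and 6.52 with the knockdown, 6.61, 5.56 and 6.71 with the empty vector and 6.51, 6.92 and 6.71 in wild-type. Hoxb9 was at 6.67, 8.31 and 7.69 with the knockdown, 7.47, 7.33 and 7.05 with the empty vector and 6.83, 6.84 and 7.22 in wild-type. Hoxb13, a gene of the tail end of the body, was at 8.19, 7.95 and 7.23 with the knockdown, 6.50, 7.21 and 6.26 with the empty vector and 6.77, 6.49 and 5.88 in wild-type. Its axonal knockdown arrays were the only group of it above background, and lay above all axonal control arrays without a call (1.14, adjusted p = 0.188, and 1.41, adjusted p = 0.102). Brain genes were also high on these arrays: Six3 was at 8.99, 8.06 and 8.19 with the knockdown, 6.97, 7.57 and 6.55 with the empty vector and 6.96, 6.68 and 6.83 in wild-type, and Emx1 at 7.94 to 8.42 with the knockdown. Their part in the Hoxb13 values was not tested. Hoxc4 was at 7.89, 8.14 and 7.65 with the knockdown, 7.87, 7.92 and 7.76 with the empty vector and 7.41, 7.87 and 7.65 in wild-type, and its groups overlapped, as did those of Hoxb2 and Hoxb9.

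Among the Hoxd genes, Hoxd8 was at 7.63, 7.00 and 7.48 with the knockdown, 6.97, 7.41 and 6.81 with the empty vector and 7.27, 8.10 and 7.59 in wild-type. Hoxd9 was at 7.22, 7.24 and 7.52 with the knockdown, 8.44, 7.08 and 7.44 with the empty vector and 6.58, 8.47 and 7.61 in wild-type. Hoxd10 was at 8.60, 5.36 and 7.24 with the knockdown, 8.18, 8.72 and 7.91 with the empty vector and 4.93, 9.03 and 6.85 in wild-type. The knockdown arrays of these 3 overlapped both controls.

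Axonal and somatodendritic levels were compared within each culture type. The 2 compartments had been brought to common distributions separately, and the median of all genes was higher on axonal arrays by 0.13 with the knockdown and by 0.17 with the empty vector and in wild-type. In wild-type 8 of the 33 genes were called (29.1% of all genes were): 5 were lower in axons and above background in cell bodies, and the 3 that were higher (Hoxb7, Hoxc5 and Hoxd12) were below background on both sides. Hoxb3 was 4.71-fold lower in axons (log2 -2.24, SE 0.42, adjusted p = 0.00253), Hoxd8 2.73-fold (-1.45, SE 0.22, adjusted p = 8.07e-04) and Hoxa5 2.84-fold (-1.50, SE 0.42, adjusted p = 0.0181). Hoxd10 was at least 9.36-fold and Hoxd3 at least 2.05-fold lower. Axonal wild-type arrays were not above background on 1 of 3 arrays for Hoxd10 (4.93, with 9.03 and 6.85 on the others) and on all 3 for Hoxd3. A second Hoxa5 probe set gave 0.69 (adjusted p = 0.485), the opposite sign, so the files give no single direction for Hoxa5. For Hoxb3 a second probe set was at 6.71, 6.84 and 7.18 on axonal wild-type arrays. On the somatodendritic ones it was at 6.84, 7.14 and 7.15, so the 2 sides overlapped. After quantile normalization over all 18 arrays 3 genes were called in wild-type, 2 higher and 1 lower, and without somatodendritic wild-type replicate 1 there were 5.

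With the empty vector 14 genes were called, 7 in each direction (42.0% of all genes), and with the knockdown 22, 12 higher and 10 lower in axons (61.7%). Hoxb3, Hoxd3, Hoxd8 and Hoxd10, each by the probe set used, were lower in axons in all 3 culture types as deposited. After quantile normalization over all 18 arrays all 4 were still called lower with the knockdown, but only Hoxd8 with the empty vector and only Hoxd3 in wild-type. Hoxb3 was then at -1.10 with the empty vector (adjusted p = 0.112) and -1.42 in wild-type (adjusted p = 0.0759), Hoxd10 at -1.61 (adjusted p = 0.247) and -3.19 (adjusted p = 0.0541). With the empty vector Hoxb3 was 3.79-fold, Hoxd8 3.73-fold and Hoxd10 5.43-fold lower in axons, and with the knockdown they were at least 11.8-fold, 3.76-fold and 8.21-fold lower. A second Hoxb3 probe set, above background in cell bodies, gave -0.06 with the empty vector (limma adjusted p = 0.875). With the knockdown it gave -0.39 (adjusted p = 0.252), so the size of the Hoxb3 difference depends on the probe set. Higher in axons and above background on both sides were Hoxa7 (2.17-fold) and Hoxc9 (1.49-fold) with the empty vector, and Hoxc6 (3.23-fold), Hoxb4 (2.79-fold), Hoxc9 (2.59-fold) and Hoxa11 (2.02-fold) with the knockdown. The other Hoxc6 probe sets, both dim, gave 0.28 (adjusted p = 0.372) and 0.13 (adjusted p = 0.558) with the knockdown. The remaining genes that were higher in axons were not above background on at least 1 side. Of the 10 brain genes 9 were also higher in axons with the knockdown, 6 with the empty vector and 2 in wild-type (median log2 difference 0.95, 0.67 and 0.52). Only 2, 2 and 1 of the 10 were above background on these axonal arrays. Whether the higher values of brain genes bear on the Hox genes higher in axons was not tested. The called Hox genes made up 24.2% of the 33 in wild-type, 42.4% with the empty vector and 66.7% with the knockdown, shares close to those of all genes. After quantile normalization 3 genes were higher and 1 lower with the empty vector, and 10 higher and 5 lower with the knockdown. The empty vector count fell to 7, 9 and 8 without somatodendritic replicate 1, 2 and 3.

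The last comparison asks whether the knockdown difference from empty vector differs between axons and cell bodies. Hoxc6 and Hoxc5, neighbours in the Hoxc cluster, were called, with an axonal difference larger than the somatodendritic one by 1.60 (SE 0.45, adjusted p = 0.0481) and 0.88 (SE 0.24, adjusted p = 0.0392) on the log2 scale. This is 2 of 33 genes, and 6.77% of all genes were called. Hoxc6 differed by 1.29 in axons and by -0.31 in cell bodies. Hoxc5 differed by 0.82 (6.89 to 7.30 with the knockdown, against 6.06 to 6.42 with the empty vector) in axons and by -0.06 in cell bodies, and was not above background in any of the 6 groups. The other Hoxc5 probe sets gave -0.80 (adjusted p = 0.194) and 0.11 (adjusted p = 0.90), and the mean of probe sets 0.06 for Hoxc5 (adjusted p = 0.905) and 0.26 for Hoxc6 (adjusted p = 0.533). Both calls were lost under many single changes of setting: leaving out any 1 somatodendritic array of these groups ended both (adjusted p 0.0774 to 0.108), as did leaving out axonal knockdown replicate 1 (0.0538 and 0.0926). Without axonal empty vector replicate 2 the count was 6. Hoxb3, at -2.02 (adjusted p = 0.0542), was not called.

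The somatodendritic calls also depend on how the spread is estimated. With all 18 arrays in 1 fit, which pools the wide spread of the axonal arrays with the narrow spread of the somatodendritic ones, 0 of the 33 genes were called between somatodendritic knockdown and empty vector, and Hoxb5 kept its difference of 1.61 at adjusted p = 0.871. In that fit 9 genes were called between axonal knockdown and empty vector, among them Hoxb4, Hoxc6, Hoxc9 and Hoxb3. Averaging all probe sets of a gene left 7 somatodendritic calls, with Hoxa10, Hoxb3, Hoxc6 and Hoxd8 no longer called.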

How the data were processed

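RNA was measured on 18 arrays, 3 in each of 6 groups (Smn knockdown, empty vector and wild-type in the axonal and the somatodendritic compartment). Per the labels' protocols, the RNA went through 2 rounds of linear amplification and was biotin-labelled. The deposited values are log2 expression values for 45101 probe sets; their software was not given in the sources used here. Sorted values differed by at most 0.00484 among somatodendritic and 0.0125 among axonal arrays, so each compartment had been brought to a common distribution on its own, and levels set across compartments compare values normalized apart. No raw intensities were used.

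Probe sets with 1 gene symbol in the platform annotation (34945) were kept, without control probe sets (64) and probe sets lacking a value (11). The probe set with the highest mean stood for a gene, which gave 18191 genes. All 33 Hox symbols matched the RefSeq gene table, used for names and neighbours only. Tests were made in R 4.3.3 with lmFit and eBayes of limma 3.58.1; p-values were adjusted over the 18191 genes by Benjamini-Hochberg and called at 0.05. Comparisons within a compartment used its 9 arrays and those across compartments all 18, with 1 mean per group and no block. With 3 arrays per group, their number limits the precision. Whether the 3 arrays of a group hold separate cultures is not in the labels, and p-values measure the spread between arrays only. Folds against a group at or below background are lower bounds ("at least") against the background level, and none is given where both groups were. Simulated data had 100 of 18191 genes shifted by log2 1 and another 100 by log2 2. Of those shifted by 1, limma recovered 100% in the 3 somatodendritic comparisons and 0% in the 3 axonal ones. Between compartments it recovered 17% of them with the knockdown, 30% with the empty vector and 24% in wild-type.

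All Hox genes are accounted for: array values are given for those above background in a group or called, and up to 4 called genes, lowest p first, for each other list; Nos1, Pou3f1, Isl2, Mtf2 and Bmi1 were added to complete a count. Members and lists (Hox partners and regulators, motor column genes and cell type markers) were chosen with earlier results of these data known. The pattern first written for background genes also took in expressed genes (230 probe sets); it was narrowed to 171, after seeing the data. Control arrays of both compartments share title numbers, and the labels do not say whether same-numbered arrays share a preparation. The main fits took the arrays as unpaired. Deviations of same-numbered arrays from their group means correlated at -0.19 to 0.23, and 1 of 18 such correlations exceeded 0.1. With so few arrays per group, these correlations cannot show whether the arrays were paired. Alternatives tried were the mean of probe sets, probe sets without shared-sequence suffixes, quantile normalization, leaving out dim genes, trend with robust eBayes, other sets of arrays in the fit, other background percentiles, the title number as a block, and leaving out each array.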

Additional observations from a re-analysis of the deposited data

Results flagged for a closer look

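Hoxc6 and Hoxc5 differed in their knockdown response between compartments by a test of the difference itself. The knockdown difference from empty vector of Hoxc6 was larger in axons than in cell bodies by 1.60 on the log2 scale (SE 0.45, n = 3 arrays in each of the 4 groups, limma adjusted p = 0.0481), and that of Hoxc5 by 0.88 (SE 0.24, adjusted p = 0.0392). Axonal Hoxc6 was at 9.81, 9.89 and 8.38 with the knockdown, against 7.70, 8.34 and 8.16 with the empty vector, and the other Hoxc6 probe sets, both dim, gave -0.39 and -0.42 (adjusted p = 0.601 and 0.379). Hoxc5 was not above background in any of the 6 groups, and its other probe sets gave -0.80 and 0.11 (adjusted p = 0.194 and 0.90). With the mean of all probe sets neither was called (0.26 for Hoxc6 and 0.06 for Hoxc5). Leaving out 1 array at a time moved the difference of Hoxc6 between 1.34 and 2.09 and that of Hoxc5 between 0.76 and 0.99. Leaving out axonal knockdown replicate 1 and empty vector replicate 2 together, the array of each of these axonal groups with the lowest correlation to the somatodendritic controls (0.539 and 0.705), gave 4 called Hox genes in place of 2.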

How the results depend on the processing

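Between somatodendritic knockdown and empty vector the 11 called Hox genes became 7 with the mean of all probe sets and 0 with all 18 arrays in 1 fit, and 9 to 11 when 1 array was left out. Against wild-type the 9 became 0 with all 18 arrays in 1 fit and 7 to 9 with 1 array left out; for empty vector against wild-type the 1 became 0 and 1 to 2 (2 without wild-type replicate 3). That fit pools the wider spread of the axonal arrays. Between axonal knockdown and empty vector the count of 0 became 1 (Hoxb3) when dim genes were left out and 9 (7 higher, 2 lower) with all 18 arrays in 1 fit, between axonal knockdown and wild-type 10 (8 higher, 2 lower), and it was 0 whichever array was left out. For axons against cell bodies the 14 of the empty vector became 4 after quantile normalization over all arrays, 8 without dim genes and 7 to 17 with 1 array left out (7, 9 and 8 without somatodendritic empty vector replicate 1, 2 or 3), and the 8 of wild-type became 3, 5 and 5 to 12 (5 without somatodendritic wild-type replicate 1); with the knockdown the 22 became 18 to 23. The 2 interaction calls became 1 with the mean of probe sets (neither Hoxc5, at 0.06, nor Hoxc6, at 0.26), 1 after quantile normalization, 0 without dim genes, 1 with trend and robust eBayes, 0 with only the groups compared, 0 to 6 with 1 array left out (6 without axonal empty vector replicate 2) and 4 without axonal knockdown replicate 1 and empty vector replicate 2, an alternative chosen after seeing the data. With the title number as a replicate block, axonal counts within the compartment were 0, and axons against cell bodies gave 14 with the empty vector and 9 in wild-type; title numbers of the somatodendritic knockdown arrays were not shared with the controls, so no block could be fitted there. Hoxd8 turned to -0.25 against the empty vector and -0.36 against wild-type without probe sets of shared-sequence suffix, and to -0.04 against wild-type with the mean of probe sets; Hoxa5 turned to 0.69 in wild-type axons against cell bodies without such probe sets. With the background pattern as first written, 7 of the 33 Hox genes were above background in at least 1 group, against 22, with 5 in each somatodendritic group, 1 in axonal knockdown, 2 in axonal empty vector and 1 in axonal wild-type arrays; the narrowed pattern was chosen after seeing the data. With the 99th percentile as background, 2 were above it in axonal knockdown, 7 in axonal empty vector and 5 in axonal wild-type arrays; with the 75th percentile 21 were above it in axonal knockdown and 23 in axonal empty vector arrays. Apart from the counts of calls, 777 values recomputed under the alternatives run kept direction and side of the threshold, 155 lost the call, 9 gained it, 4 reversed and 11, the counts above background just given, moved; the cause was not tested except where stated. Signal over background limits the 11 Hox genes that were above it in no group.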

Other observations

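3 further transcripts of the Hox clusters, which are antisense or opposite-strand genes by their symbols and not among the 33, had probe sets of their own. Hoxd3os1 was at 8.43, 8.47 and 8.72 on somatodendritic knockdown arrays, against 7.46, 8.19 and 7.82 with the empty vector and 6.96, 7.88 and 7.65 in wild-type. Its knockdown arrays lay above all control arrays, and the log2 difference was 0.72 against the empty vector (SE 0.22, n = 3 per group, limma adjusted p = 0.0318 over all probe sets with 1 symbol) and 1.04 against wild-type (adjusted p = 0.00283). Hoxb5os was at 9.15, 8.93 and 8.51 with the knockdown, against 8.58, 8.54 and 8.42 with the empty vector and 8.62, 8.29 and 8.32 in wild-type, a difference of 0.36 (adjusted p = 0.105) and 0.46 (adjusted p = 0.0304), and its knockdown arrays overlapped both controls. On axonal arrays Hoxb5os lay between 5.11 and 11.91 with the knockdown, between 6.77 and 9.77 with the empty vector, and between 7.31 and 9.87 in wild-type. Hoxa11os was below background in every group.

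Other cell type lists gave these counts for somatodendritic knockdown against empty vector, to be read beside the 28.0% of all genes called there. Of 12 cholinergic motoneuron markers 2 rose (Nefh by 0.39 and Isl2, below background, by 0.34) and 2 fell (Nefl and Nefm, by 0.46 each). Of 13 spinal interneuron markers 2 rose (Slc32a1 by 0.61 and Pax8 by 0.38). Of 8 muscle markers 2 fell, the smooth muscle genes Acta2 by 4.48 and Tagln by 1.38. Of 6 Schwann and neural crest markers 3 fell (Tfap2a, Mpzl2 and Sox10), of 8 endothelial markers 1 fell (Kdr), of 12 fibroblast and meningeal markers 1 rose (Thy1, which neurons express too), and of 4 sensory neuron markers 0 were called, with Scn10a at -0.20 (adjusted p = 0.101) and Trpv1 at -0.13 (adjusted p = 0.386).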
